A study of Mus musculus with 28 samples.

Results

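The comparison set normal brain that had lost Rictor against normal brain that kept 1 copy of it, across all genes on the array. Its members were chosen by label: the tissue normal brain with the genetic specifics hGFAP-Cre::p53-/-; Rictor-/- (5 arrays, called Rictor-null here) or hGFAP-Cre::p53-/-; Rictor+/- (5 arrays, called Rictor-heterozygous), which are 10 of the 28 arrays of the study. The other arrays measured medulloblastomas, gliomas and 2 further normal brains, 1 of them wild type and 1 that lacked p53 only. Both groups shared the loss of p53 and the Cre transgene, so neither was a group without p53 loss. The reference group itself carried 1 deleted copy of Rictor. The hGFAP promoter drives Cre in neural progenitors and their glial and neuronal descendants. Vessels, microglia and other cells outside that lineage therefore keep Rictor in a bulk piece, and p53 too where its loss needs Cre. The labels give no age, no brain region and do not state that each array is another mouse; a p-value here rests on array-to-array spread, part of which may be technical.

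Rictor is the defining subunit of mTORC2, a complex in which the mTOR kinase acts with Rictor, Mapkap1 (mSIN1) and Mlst8. The complex phosphorylates AKT, SGK and PKC kinases downstream of insulin and growth factor receptors, and through them bears on survival, metabolism and the actin cytoskeleton. In the brain it is known for its part in neuron size and in the maturation of oligodendrocytes, the cells that make myelin. Most of these steps act on proteins by phosphorylation, which an expression array does not measure. The question of the comparison is which transcripts differ in tissue labelled normal brain when the second copy of Rictor is also lost.

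The code in its title names each array, B1, B2, B4, B6 and B7 for the Rictor-heterozygous brains and C1, C2, C3, C5 and C6 for the Rictor-null brains, and values are given in that order. Levels are intensities on a linear scale in arbitrary units, with each array scaled to a trimmed mean of 100. A difference is Rictor-null minus Rictor-heterozygous on the log2 scale, taken as log2 of the intensity plus 6.3, and it understates the change of a dim gene. The median intensity of an array was 18.8 to 25.5. The ratio of 3' to 5' probe sets, a measure of RNA integrity, was highest in B2 (Gapdh 2.58, actin 6.01); the other 9 arrays had Gapdh ratios of 0.972 to 1.52 and actin ratios of 1.99 to 4.95. Of the arrays, B1, B2, B4, C3 and C5 have titles with the prefix YZ, and B6, B7, C1, C2 and C6 the prefix YZ2; the meaning of the prefix is not stated in the labels. Each code is also carried by 1 tumour array, a glioma for B1, B2, B7 and C3 and a medulloblastoma for the other 6.

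The pieces differed among themselves in the transcripts of brain regions. B2 and C5 held cerebellar transcripts: Gabra6, the GABA receptor subunit of granule neurons, read 1.6, 1740.4, 18.3, 3 and 5.1 and 1.1, 8.2, 10.6, 4153 and 116, and Pcp2, a Purkinje cell gene, 12.9, 1637, 40.9, 6.5 and 7.3 and 5.8, 14, 2.5, 5657 and 164. C6 had low but clear levels of both. B2 also carried hindbrain transcripts, with the glycine transporter Slc6a5 at 745.5 and Hoxb3 at 186, against 134.8 and 18.4 in C5. Both arrays were low in forebrain transcripts, with a mean level of 5.72 and 5.65 over 11 genes where the others lay at 8.14 to 8.78. The wild-type array was cerebellar too. B2 and C5 correlated with the others at 0.893 to 0.939 and with each other at 0.953, and the first principal component, which held 44.5% of the variance, set them apart.

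Among the other 8 arrays the region varied within both groups. Striatal transcripts were high in B1, C1 and C3, with mean levels of 9.90, 9.86 and 9.53 over 8 genes against 6.80 to 7.86 in the other 5. The dopamine receptor Drd1 read 1027, 10.6, 107, 224 and 194 and 826, 158, 821, 7 and 190.2. Hypothalamic transcripts were high in B7 and C1 (7.38 and 7.26 over 7 genes), where Pmch, the precursor of melanin-concentrating hormone, read 1141 and 875. Olfactory bulb transcripts were high in B6 and C6 (6.04 and 6.57 over 7 genes). C2 was rich in genes of granule neuron precursors and of the cell cycle, with Atoh1 at 9.2, 176, 1.4, 9.7 and 7 across the Rictor-null arrays, Mycn at 379.5 and Mki67 at 275 in C2. Its code, like those of other arrays here, is also carried by a medulloblastoma, and whether C2 held tumour cells was not tested. C6 alone held the serotonin neuron gene Tph2, at 155.8 where the others read 2.4 to 11.2. Ttr, the transthyretin of choroid plexus, read 32.8 in B1 and 60.2 in C1 and 5381 to 9560 in the others. Xist, the X-inactivation transcript of females, read 11.9 in C6 and 1795 to 3448 in the other 9. Region and sex were not labelled, and their part in the differences between the genotypes was not tested beyond the terms given.

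**Figure D1:**
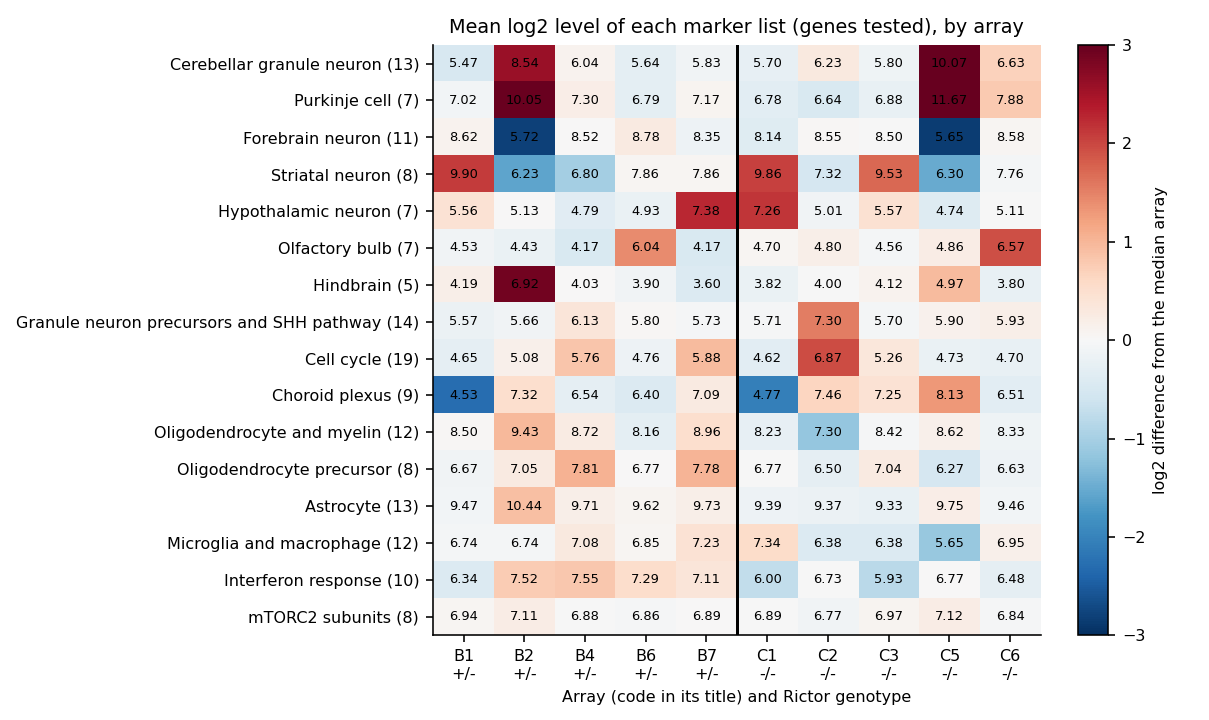
Mean log2 level of 16 gene lists (rows, number of tested genes in brackets) in each of 10 arrays (columns, Rictor-heterozygous left and Rictor-null right of the line); numbers are the levels and colours the log2 difference from the median array, drawn to a limit of 3. Cerebellar genes stand out in B2 and C5, striatal genes in B1, C1 and C3, and the interferon row is lower in every Rictor-null array than in each Rictor-heterozygous one but B1.

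No gene passed the test. In limma, 0 of 14147 genes had a Benjamini-Hochberg adjusted p under 0.05, 0% of those tested, and the lowest adjusted p was 0.9997, so genes below are given with their log2 difference and its 95% interval or standard error (SE) from that fit, most with both. A p of its own is given for the Rictor probe sets, by exact permutation, and for Lce1h in the 1 alternative that called it. At an unadjusted p under 0.05, 192 genes (1.36%) were higher and 252 (1.78%) were lower in the Rictor-null brains. The 444 in all were 3.14% of the genes, below the share of 0.05 that the threshold itself allows by chance. With quantile normalization the split was 132 higher and 363 lower, again with 0 called. The 5 values of one group lay wholly above the 5 of the other for 39 genes (0.276%) that were higher and 28 genes (0.198%) that were lower in the Rictor-null brains. Of the 252 ways to split the arrays into 5 and 5, 1 separates a gene in a given direction, a larger share than either of these. A lack of overlap is therefore a description of a gene and not a result. The genes named below are therefore values of genes that did not pass, chosen by fixed rules, and none is called changed.

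The absence of called genes was read with the width of the intervals. The median standard error of a log2 difference was 0.19, and for 12404 genes (87.7%) the 95% interval lay within -1 and 1. For the other genes the interval reached beyond that range. The share depended on the setting: 79.4% with 1 added to the intensity in place of 6.3, 95.5% with 32 added, and 81.4% with all 28 arrays as group means. The 8 arrays other than B2 and C5 correlated across genes at 0.958 to 0.982, and pairs of the same genotype were no more alike than pairs of different genotype (medians 0.969 over 12 pairs and 0.970 over 16 pairs). This correlation is across genes, which are not independent replicates.

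**Figure D2:**
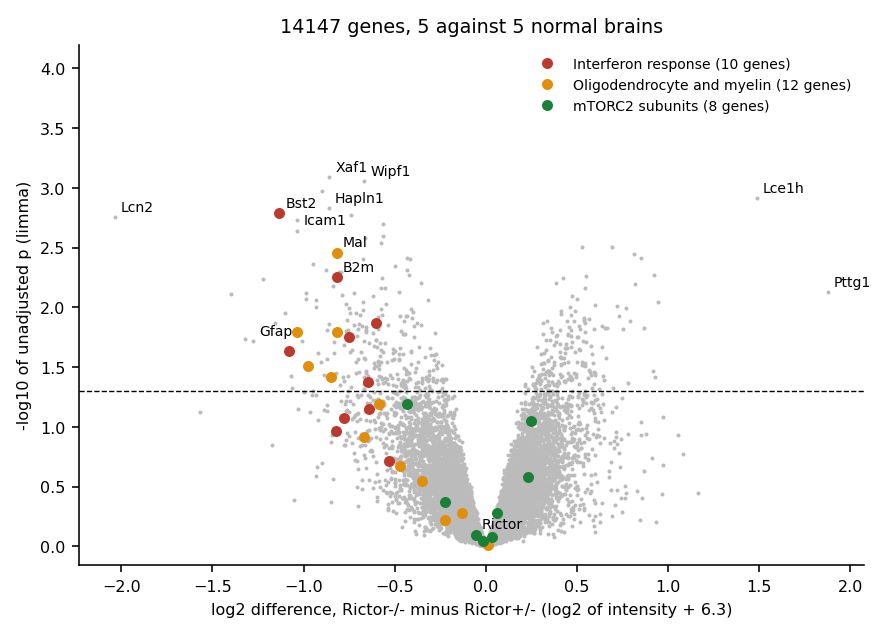
Each point is 1 of 14147 genes, with the log2 difference (Rictor-null minus Rictor-heterozygous, 5 against 5 arrays) on the x axis and -log10 of the unadjusted limma p on the y axis; the dashed line marks the threshold of 0.05 and colours mark 3 gene lists. The 10 interferon genes all lie left of 0, the 8 mTORC2 genes lie between -0.43 and 0.25, and no gene passed the adjusted test.

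The targeted gene itself did not separate the groups. The brightest of 5 Rictor probe sets, 1435698_at, read 251.7, 389, 266, 252.5 and 250.5 in the Rictor-heterozygous arrays and 270.5, 213, 222, 444 and 238 in the Rictor-null arrays. The highest array of each group was the one rich in cerebellar transcripts, B2 and C5, and the groups overlapped. The log2 difference was -0.054, and an exact two-sided permutation test gave p = 0.730, where the smallest p that 5 against 5 allows is 0.00794. Without B2 and C5 the 4 Rictor-null arrays ranged from 213 to 270.5 and the 4 others from 250.5 to 266, a log2 difference of -0.11 (exact permutation p = 0.229, smallest possible 0.0286). Within the prefix YZ the difference was 0.084 and within YZ2 it was -0.068, and with the prefix in the fit it was 0.0078, so its sign was not settled. Without B2, C2 or C3 in turn it was 0.066, 0.026 and 0.011. The 1 wild-type array, a piece rich in cerebellar transcripts, read 580.

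The other Rictor probe sets went both ways. Probe set 1429810_at read 18, 33.4, 32.8, 32.5 and 23.8 in the Rictor-heterozygous and 38.4, 59.8, 24.9, 95.4 and 45.5 in the Rictor-null arrays, higher in 4 of 5 Rictor-null arrays than in every Rictor-heterozygous one (log2 difference 0.69, exact permutation p = 0.0556, adjusted over the 5 probe sets 0.218). Probe set 1453775_at was dim and lower, at 6.8 to 11.8 against 4.8 to 9.8 (log2 difference -0.26, exact permutation p = 0.0873, adjusted 0.218). The remaining 1441753_at and 1427583_at gave log2 differences of 0.28 and 0.19 (exact permutation p = 0.429 and 0.540, adjusted 0.675 for both). Where these probe sets lie relative to the deleted part of Rictor is not known here, and a transcript without the deleted part can still be read by a probe outside it. The array values therefore do not check the genotype labels. In bulk tissue, fewer cells of a type and less RNA per cell cannot be told apart.

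**Figure D3:**
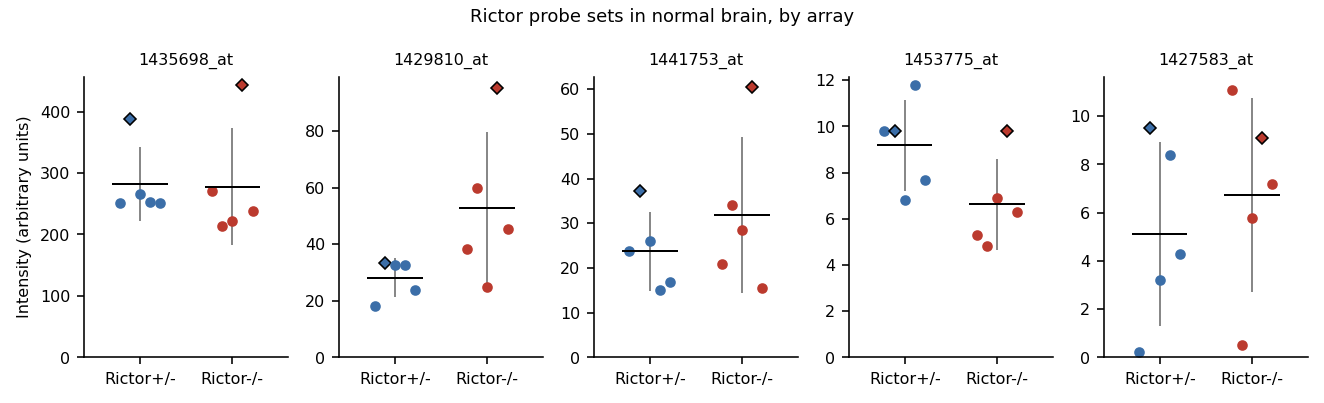
Intensity (y axis, arbitrary units, from 0) of the 5 Rictor probe sets in each array, with Rictor-heterozygous arrays in blue, Rictor-null arrays in red, B2 and C5 as outlined diamonds, the group mean as a black line and 1 SD as a grey bar. Only 1429810_at has most Rictor-null arrays above all Rictor-heterozygous ones, and the diamonds are the highest points of the brightest probe set.

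The genes next to Rictor on chromosome 15 were examined as neighbours of the targeted locus. Of the 10 tested genes on each side in RefSeq gene order, 0 passed the limma test and 2 had an unadjusted p under 0.05, both lower in the Rictor-null brains, where 1.78% of all tested genes were lower at that p. Osmr, the oncostatin M receptor subunit and the nearest tested gene on one side, read 51.3, 182, 109.5, 73.9 and 70.6 against 40.5, 69.3, 39, 51.1 and 50.4 (log2 difference -0.78, SE 0.29, 95% interval -1.41 to -0.14). Nadk2, the mitochondrial NAD kinase, 10 tested genes away on the same side, read 429, 745, 462, 523 and 501 against 364, 384, 325, 433 and 465 (log2 difference -0.41, SE 0.16, 95% interval -0.75 to -0.067). In both genes B2 was the highest array and the groups overlapped. Fyb, the nearest tested gene on the other side, differed by -0.37 (95% interval -0.75 to 0.014) and Lifr, the LIF receptor, by -0.35 (-0.77 to 0.066). Dnajc21, a ribosome biogenesis factor 14 tested genes from Rictor on the side of Osmr, was among the genes with the smallest p. It read 179, 246, 256, 230.4 and 204 against 119, 95, 151, 189.7 and 115 (log2 difference -0.74, SE 0.18, 95% interval -1.14 to -0.34), overlapping through B1 and C5; a further probe set of Dnajc21 differed by 0.089. Over the whole chromosome 7 of 553 tested genes (1.27%) were lower and 3 (0.54%) higher at an unadjusted p under 0.05, both shares below those of all tested genes (1.78% and 1.36%).

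Among mTORC2 components, 8 of 9 listed genes were tested, since Prr5 lay below the filter on dim probe sets. None had an unadjusted p under 0.05, 4 were higher and 4 lower, the median log2 difference was 0.0095, and the 95% interval of all 8 lay within -1 and 1. Mapkap1, the mSIN1 scaffold, read 212, 164, 164, 182 and 191 against 204, 166, 171, 186 and 175, a log2 difference of -0.014 (95% interval -0.26 to 0.23). Mtor, the shared kinase, differed by 0.063 (-0.15 to 0.27). Deptor, an inhibitor of mTOR, had the smallest p of the list at 147, 162, 122, 169 and 190.3 against 87.8, 96.8, 171, 86 and 154 (log2 difference -0.43, SE 0.21, 95% interval -0.89 to 0.031), and 3 of the 5 Rictor-null arrays lay below every other array. Mlst8, the shared beta-propeller subunit, differed by 0.25 (-0.044 to 0.54), and its other probe set went the opposite way, at -0.20. Of 21 tested genes of the mTORC1 branch, none had an unadjusted p under 0.05 and 20 had an interval within -1 and 1, with a median of -0.020.

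The list of the PI3K, AKT, SGK and PKC pathway held kinases and regulators, and also the substrate Ndrg1. Of its 27 tested genes 2, Pik3r1 and Ndrg1, were lower at an unadjusted p under 0.05, against 1.78% of all tested genes. None was higher, and 23 had an interval within -1 and 1. The median was 0.042, of unsettled sign across the alternatives (-0.12 to 0.062). Without B2 and C5 4 were lower at that p, against 1.99% of all genes. With a term for those arrays 3 were lower, against 3.19%. Within the prefix YZ none was lower (1.43% of all genes) and 1 was higher (0.792%). Pik3r1, the p85 alpha regulatory subunit of PI3K, read 645, 615, 704, 565 and 639 in the Rictor-heterozygous arrays and 259, 317, 684, 454 and 247 in the Rictor-null arrays (log2 difference -0.79, SE 0.24, 95% interval -1.32 to -0.25). All Rictor-null arrays but C3 lay below every Rictor-heterozygous array, and the log2 difference was -0.88 without B2 and C5. Within the prefix YZ, which holds C3, it was -0.23, and within YZ2 -1.12. Over all alternatives it ranged from -1.14 to -0.23. The 4 probe sets of Pik3r1 gave log2 differences from -1.01 to -0.16. Ndrg1, a substrate of SGK1, read 559.9, 1144, 569, 487 and 618 against 386, 411, 516, 431 and 451 (log2 difference -0.55, SE 0.20, 95% interval -0.996 to -0.10), with B2 far above the others and a log2 difference of -0.34 without B2 and C5. Sgk1 itself ranged from 1279 to 2792 in the Rictor-heterozygous and from 592 to 2157 in the Rictor-null arrays (log2 difference -0.57, SE 0.32, 95% interval -1.28 to 0.13). Sgk3 (log2 difference -0.48, SE 0.32, 95% interval -1.19 to 0.22) and the lipid phosphatase Inppl1 (log2 difference -0.33, SE 0.18, 95% interval -0.72 to 0.069) lay lower on average, and Akt2 higher (log2 difference 0.24, SE 0.14, 95% interval -0.071 to 0.55), with overlapping groups in each. Akt1 read 200.2, 164, 189, 152 and 159.9 against 169.9, 206, 172, 188 and 179, a log2 difference of 0.082 (95% interval -0.17 to 0.33). None of 21 tested FOXO factors and targets, which AKT restrains, had an unadjusted p under 0.05, with 8 higher, 13 lower and a median of -0.062.

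In 6 lists of other processes (lipid synthesis, glycolysis, circadian clock, heat shock, monoamine neurons and immediate early genes) at most 1 gene a list had an unadjusted p under 0.05, where 1.36% of all tested genes were higher and 1.78% lower at that p. Of 20 sterol and fatty acid synthesis genes none had an unadjusted p under 0.05, 8 higher and 12 lower. Of 18 genes of glycolysis and glucose uptake, Slc2a3, the neuronal glucose transporter, was the 1 member past that p (log2 difference 0.21, SE 0.096, 95% interval 0.0051 to 0.42). None of 15 circadian clock genes had an unadjusted p under 0.05, though 12 were higher; none of 11 heat shock genes did, though 9 were lower. Of 11 genes of monoamine neurons 1 did, the noradrenaline transporter Slc6a2 (log2 difference 0.53, SE 0.20, 95% interval 0.11 to 0.96). Of 12 immediate early genes 1 did, the transcription factor Egr4 (log2 difference 0.53, SE 0.22, 95% interval 0.060 to 1.003).

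Interferon-response genes had the lowest median of the 31 lists with at least 5 tested genes. All 10 tested members were lower in the Rictor-null brains, against 48.2% of all tested genes, and 6 of the 10 had an unadjusted p under 0.05, against 1.78% of all genes in that direction. The median log2 difference was -0.76, against 0.0072 over all genes. None of the 10 passed the adjusted limma test, and genes of the list vary together across arrays, so they are not 10 independent observations. The list was also chosen with earlier results of these data known, so the shares of all genes beside it describe it and do not test it. Per array, the mean log2 level of the 10 genes was 6.34, 7.52, 7.55, 7.29 and 7.11 in the Rictor-heterozygous brains (7.16 ± 0.49, SD, n = 5) and 6.00, 6.73, 5.93, 6.77 and 6.48 in the Rictor-null brains (6.38 ± 0.40, SD, n = 5). B1 was the 1 Rictor-heterozygous array within the Rictor-null range. The wild-type array lay at 5.83 and the array lacking p53 only at 6.73.

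Interferons act on cells through receptors that activate STAT and IRF factors, which bind elements in the promoters of the genes they induce. The members span restriction factors, RNA sensors and antigen presentation. Bst2 (tetherin, which holds budding viruses at the cell surface) read 36, 70.4, 79.8, 46.7 and 46.2 against 13.6, 13.3, 23.6, 40.9 and 21.6 (log2 difference -1.13, SE 0.28, 95% interval -1.74 to -0.53), and C5 was the 1 Rictor-null array above a Rictor-heterozygous one, B1. B2m, the light chain of MHC class I, read 968, 2005, 1775, 883 and 1567 against 709, 681, 617, 1019 and 907 (log2 difference -0.82, SE 0.24, 95% interval -1.34 to -0.29), with C5 and C6 reaching the lower Rictor-heterozygous arrays. Ifit1, which binds viral RNA, read 25.3, 120.4, 88.6, 161 and 59.8 against 23.5, 47.9, 20.4, 32.7 and 52.3 (log2 difference -1.08, SE 0.41, 95% interval -1.99 to -0.18), with B1 inside the Rictor-null range. Ifit3, its partner, read 77.7, 180.3, 157, 212 and 127 against 60.1, 92.6, 58.5, 107 and 109.5 (log2 difference -0.75, SE 0.27, 95% interval -1.34 to -0.16), again with B1 low. Irf7, a transcription factor of the interferon response, read 29.9, 53.6, 40, 41 and 44.7 against 22.7, 41.3, 16.7, 25.1 and 23.7 (log2 difference -0.60, SE 0.21, 95% interval -1.06 to -0.15), and C2 lay among the Rictor-heterozygous values. H2-K1, an MHC class I heavy chain that shares sequence with others of its family, differed by -0.64 (95% interval -1.26 to -0.029). Usp18 (log2 difference -0.82, SE 0.47, 95% interval -1.85 to 0.21), Rsad2 (log2 difference -0.78, SE 0.41, 95% interval -1.68 to 0.12), Oasl2 (log2 difference -0.64, SE 0.32, 95% interval -1.34 to 0.065) and H2-D1 (log2 difference -0.53, SE 0.39, 95% interval -1.38 to 0.31) did not reach that p. Xaf1, an interferon-inducible gene outside the list, had the smallest p of the genes that were lower, clone names set aside. It was named for that p in these data, so it does not test the list, and its other probe set differed by 0.012.

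The promoters of these genes were searched for the letters GAAA, any 2 bases and GAAA, the core shared by many interferon-stimulated response elements, on both strands and with overlapping matches kept. RefSeq promoters of 300 bases around the annotated start (GRCm38.p6) were found for 9 of the 10 tested members, and 5 of the 9 held it, against 405 of 11365 tested genes with a promoter in that table (3.56%) and 1079 of all 27025 genes in it (3.99%). A match is a description of the sequence and was not measured as a binding site. The excess over all genes comes with choosing interferon-response genes, whatever their levels in these arrays. It does not bear on why they lay lower, which was not tested. The stretches that hold the match nearest to the start are shown because these genes lay lower together; each is 5' to 3' on the strand of its gene, with the matching letters in capitals (TTTC where the match is on the opposite strand).
Bst2, chr8:71537567-71537616, minus strand: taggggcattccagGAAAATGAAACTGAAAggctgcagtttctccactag
B2m, chr2:122147528-122147577, plus strand: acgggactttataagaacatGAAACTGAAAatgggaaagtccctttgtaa
Ifit1, chr19:34640784-34640833, plus strand: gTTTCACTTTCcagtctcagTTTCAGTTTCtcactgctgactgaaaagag
Ifit3, chr19:34583387-34583436, plus strand: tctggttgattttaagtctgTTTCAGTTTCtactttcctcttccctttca
Rsad2, chr12:26456543-26456592, minus strand: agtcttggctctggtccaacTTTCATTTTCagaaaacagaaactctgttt
Of these 5, Bst2, B2m, Ifit1 and Ifit3 had an unadjusted p under 0.05 and Rsad2 did not.

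The interferon genes were followed across the subsets of arrays. Without B2 and C5 the median was -0.77 and 6 of 10 had an unadjusted p under 0.05, against 1.99% of all genes lower at that p. With a term for those 2 arrays in the fit 7 of 10 did. Over the whole array 451 genes (3.19%) were then lower and 379 (2.68%) higher at that p, again with 0 called. With 1 such array in each group of 5, the term cannot move a log2 difference, and it changed only the estimated spread and p. All 10 were lower within the prefix YZ (median -0.79), 1 of them past that p against 1.43% of all genes, and within YZ2 (median -0.82), 5 of them past it against 2.37%. With the kind of tumour carrying the same code in the fit the median was -0.96 and 8 of 10 had an unadjusted p under 0.05, against 1.20% of all genes. With all 28 arrays fitted as group means, which share 1 estimate of the spread with the tumours, 1 of 10 did, against 0.573%. Leaving out 1 array at a time kept all 10 lower, with 4 to 9 past that p, against 1.41% to 2.62% of all genes. The most, 9, came without B1 or without C2, and the fewest, 4, without B2, C1 or C3. With the replicate number as a block, 3 of 10 did, against 2.72%. Beside this, the mean level of 12 markers of microglia and macrophages was 6.74, 6.74, 7.08, 6.85 and 7.23 in the Rictor-heterozygous and 7.34, 6.38, 6.38, 5.65 and 6.95 in the Rictor-null arrays; C1 was highest in those markers and among the lowest in interferon genes. The 3 arrays lowest in interferon genes, B1, C1 and C3, were also the 3 richest in striatal transcripts, 1 of them Rictor-heterozygous and 2 Rictor-null. The part of microglia and of region in the result was not tested.

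The genes that follow were named by the smallest p on the lower side, by groups that did not overlap or as members of a list, and they do not form a list of their own. Lcn2 (lipocalin 2, made by reactive astrocytes and endothelium) had the widest log2 difference of the named genes, at 45.6, 82.8, 9, 15.1 and 72.1 against 2.2, 1, 6, 0.7 and 12.9 (log2 difference -2.04, SE 0.50, 95% interval -3.13 to -0.94). B4 at 9 lay below C6 at 12.9, and the array lacking p53 only read 71.5. Icam1, an adhesion molecule for leukocytes, read 24.5, 60.6, 38.1, 27.2 and 26.5 against 12.6, 13, 6.6, 13.7 and 23.4 (log2 difference -1.03, SE 0.26, 95% interval -1.61 to -0.46) with no overlap. Ccl2, a monocyte chemokine, was dim at 8.8, 24.6, 20, 35.1 and 8.3 against 6.2, 8, 7.9, 5.6 and 1.8 (log2 difference -0.98, SE 0.30, 95% interval -1.65 to -0.32), with no overlap by a narrow gap, 8.3 against 8. Lrg1, a secreted glycoprotein of inflamed vessels, read 23.4, 41.6, 22.2, 24.3 and 36.3 against 7.8, 13.5, 14.2, 10.7 and 17.9 (log2 difference -0.90, SE 0.21, 95% interval -1.35 to -0.45) with no overlap. Gfap, the intermediate filament of astrocytes, read 36.4, 331, 166, 107 and 178 against 53.1, 88.1, 30.9, 41.8 and 56.3 (log2 difference -1.28, SE 0.47, 95% interval -2.30 to -0.25); B1 lay within the Rictor-null range, and without B2 and C5 the difference was -0.89.

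Further genes with the smallest p on the lower side were these. Xaf1 read 249.8, 517, 361, 291 and 364 against 162, 153, 218, 195 and 221 (log2 difference -0.86, SE 0.19, 95% interval -1.28 to -0.44); its groups did not overlap, but its other probe set differed by 0.012. Wipf1, which stabilises the actin regulator WASP, read 107, 156, 150.3, 150 and 170.5 against 84.5, 76.2, 87.9, 88.4 and 112 (log2 difference -0.67, SE 0.15, 95% interval -0.99 to -0.34), where C6 exceeded B1. Hapln1, a link protein of the matrix around neurons, read 45.7, 79, 57.5, 73.1 and 75.1 against 33.9, 24.5, 40.1, 23.7 and 47.2 (log2 difference -0.86, SE 0.21, 95% interval -1.32 to -0.41), where C6 exceeded B1. Ctla2a, a cysteine protease inhibitor, read 112, 271, 90.4, 124 and 104 against 53.7, 71.5, 65.5, 49.1 and 62 (log2 difference -1.03, SE 0.26, 95% interval -1.60 to -0.47); without B2, the highest array, and C5 the difference was -0.71, and the array lacking p53 only read 567. S100a1 (log2 difference -0.56, SE 0.14, 95% interval -0.87 to -0.25), a calcium-binding protein, Lrp4 (log2 difference -0.57, SE 0.15, 95% interval -0.89 to -0.24), a receptor of the LDL family, and Pawr (log2 difference -0.67, SE 0.17, 95% interval -1.05 to -0.28), a pro-apoptotic regulator, had no overlap. Pawr read 43.5, 44.7, 43.8, 48 and 50.5 against 19.5, 33.2, 29.8, 18.9 and 35.9. Chst7 (log2 difference -0.76, SE 0.26, 95% interval -1.33 to -0.20), a sulfotransferase, and Fmn1 (log2 difference -0.70, SE 0.25, 95% interval -1.24 to -0.16), an actin nucleator, also had no overlap between groups.

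**Figure D4:**
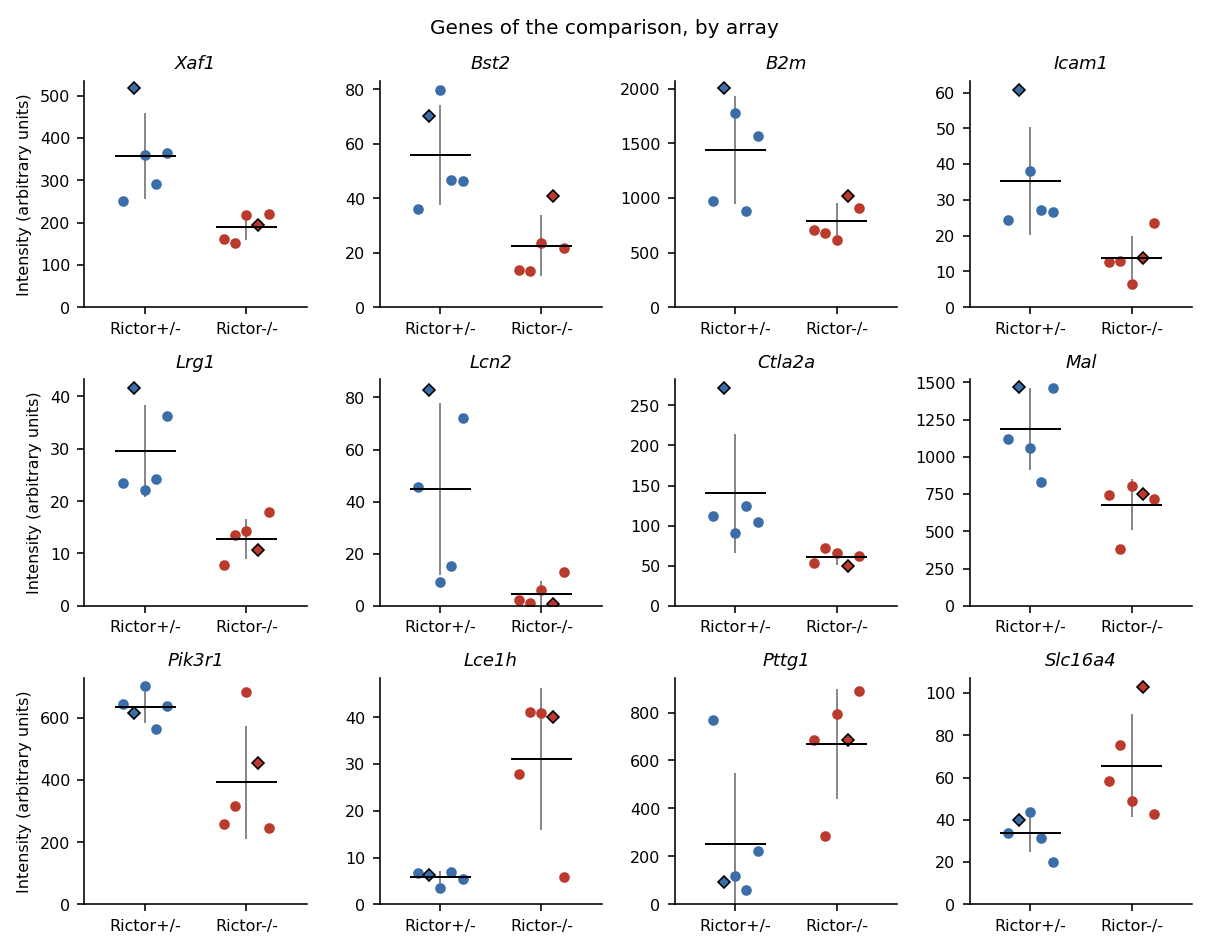
Intensity (y axis, arbitrary units, from 0) of 12 named genes in each array, with Rictor-heterozygous arrays in blue, Rictor-null in red, B2 and C5 as outlined diamonds, the mean as a black line and 1 SD as a grey bar. Xaf1, Icam1, Lrg1, Ctla2a and Mal show no overlap, whereas C6 lies with the Rictor-heterozygous arrays for Lce1h and B1 with the Rictor-null arrays for Pttg1.

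Oligodendrocyte genes lay lower as a list. Of 12 tested genes of mature oligodendrocytes and myelin, 11 were lower and 5 had an unadjusted p under 0.05, with a median of -0.63; of all tested genes 48.2% were lower and 1.78% were lower at that p. Mal, a proteolipid of compact myelin, read 1121, 1467, 1062, 829 and 1463 against 746, 381, 806, 748 and 715 (log2 difference -0.82, SE 0.22, 95% interval -1.30 to -0.33) with no overlap. Ermn, a cytoskeletal protein of myelinating cells, read 233, 640.3, 277, 221 and 389 against 145, 65.9, 184, 262 and 189 (log2 difference -1.04, SE 0.37, 95% interval -1.84 to -0.23). Cldn11, the tight-junction claudin of myelin, differed by -0.82 (95% interval -1.45 to -0.18), Myrf, the master transcription factor of myelination, by -0.97 (-1.84 to -0.11), and Mobp, a structural protein of myelin, by -0.85 (-1.65 to -0.055), each with overlapping groups. Mbp, a main protein of compact myelin, differed by -0.13 (95% interval -0.58 to 0.32) and Opalin by 0.012 (-0.70 to 0.72), so the list was not uniform. The mean level of the 12 genes was 8.50, 9.43, 8.72, 8.16 and 8.96 in the Rictor-heterozygous (8.76 ± 0.48, SD, n = 5) and 8.23, 7.30, 8.42, 8.62 and 8.33 in the Rictor-null arrays (8.18 ± 0.51, SD, n = 5). B2 was highest and C2 lowest, and every Rictor-null array but C2 lay above B6, so the groups overlapped. Genes of a cell type list vary together across arrays and are not independent observations. The oligodendrocyte lists were also chosen with earlier results of these data known. The part of region and of the cell content of a piece was not tested. Without B2 and C5 the median was -0.56 with 5 genes past that p (1.99% of all genes), without C2 -0.40 with 3 (1.68%), without B2 -0.42 with 3 (1.54%), without B7 -0.55 with 3 (1.42%), and without B2, C5 and C2 -0.28 with 3 (1.81%). In 4 further fits 1 gene passed it. These were the fit with the kind of tumour (median -0.52, 1.20% of all genes), all 28 arrays as group means (0.573%), the replicate block (median -0.72, 2.72%) and the arrays within YZ (median -0.38, 1.43%). Within YZ2 the median was -0.63 with 4 genes past it (2.37%).

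All 8 oligodendrocyte precursor genes were lower, 2 of them at an unadjusted p under 0.05, against 1.78% of all genes, with a median of -0.62. Olig1, a transcription factor of the lineage, read 597, 1070.1, 1127, 641 and 1202 against 716, 476, 748, 572 and 684 (log2 difference -0.49, SE 0.22, 95% interval -0.97 to -0.011), and the proteoglycan Vcan differed by -0.67 (95% interval -1.32 to -0.0073). Pdgfra, which receives the PDGF signal that keeps precursors dividing, read 284, 423, 799, 341 and 744 against 305, 389, 416, 150.4 and 316 (log2 difference -0.66, SE 0.34, 95% interval -1.40 to 0.076), and Olig2 differed by -0.76 (-1.51 to 0.0012). The arrays B4 and B7 stood highest in the list, at 7.81 and 7.78, and the others lay between 6.27 and 7.05. Without B2 and C5 the median was -0.46 with 1 gene past that p (1.99% of all genes). As a mean over the probe sets of a gene it was -0.31 with 2 (1.57%), and with the replicate block -0.16 with 0 (2.72%). None passed that p without a mean-variance trend, with the kind of tumour in the fit, with 28 arrays as group means, within YZ, or without B4, B7, C2, C5 or C6 in turn, whereas 5 did with a term for B2 and C5 (3.19% of all genes) or without B1 (2.62%).

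The astrocyte, microglia, endothelial and neuron lists had medians closer to 0; the counts at an unadjusted p under 0.05 are read against 1.78% of all genes lower and 1.36% higher. Of 13 astrocyte genes 12 were lower, 2 at an unadjusted p under 0.05, with a median of -0.23 that was -0.12 without B2 and C5. Fgfr3, a receptor of the astrocyte lineage, read 633, 996, 699.6, 558 and 523 against 501, 434, 499, 414 and 392 (log2 difference -0.57, SE 0.17, 95% interval -0.93 to -0.20) with no overlap. Of 12 microglia and macrophage genes 11 were lower, 2 past that p, with a median of -0.35; without B2 and C5 none was past it and the median was -0.16, and over all alternatives it ranged from -0.83 to 0.11. Trem2 (log2 difference -0.92, SE 0.35, 95% interval -1.70 to -0.14), a lipid receptor of microglia, and C1qa (log2 difference -0.66, SE 0.26, 95% interval -1.24 to -0.090), a complement component, were the 2. All 9 endothelial genes were lower, 1 of them past that p, von Willebrand factor, Vwf (log2 difference -0.61, SE 0.25, 95% interval -1.15 to -0.067). Mature neuron genes had a median of 0.066 over 13 genes, none past that p, and 11 of the intervals lay within -1 and 1. The 9 choroid plexus genes were all higher with none past that p, and their intervals reached from -3.39 to 4.13. In the lists of granule, Purkinje, forebrain, striatal, hippocampal, thalamic, hypothalamic, hindbrain and olfactory bulb neurons, granule neuron precursors, mural and meningeal cells and ependymal cells, none of the tested genes had an unadjusted p under 0.05.

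**Figure D5:**
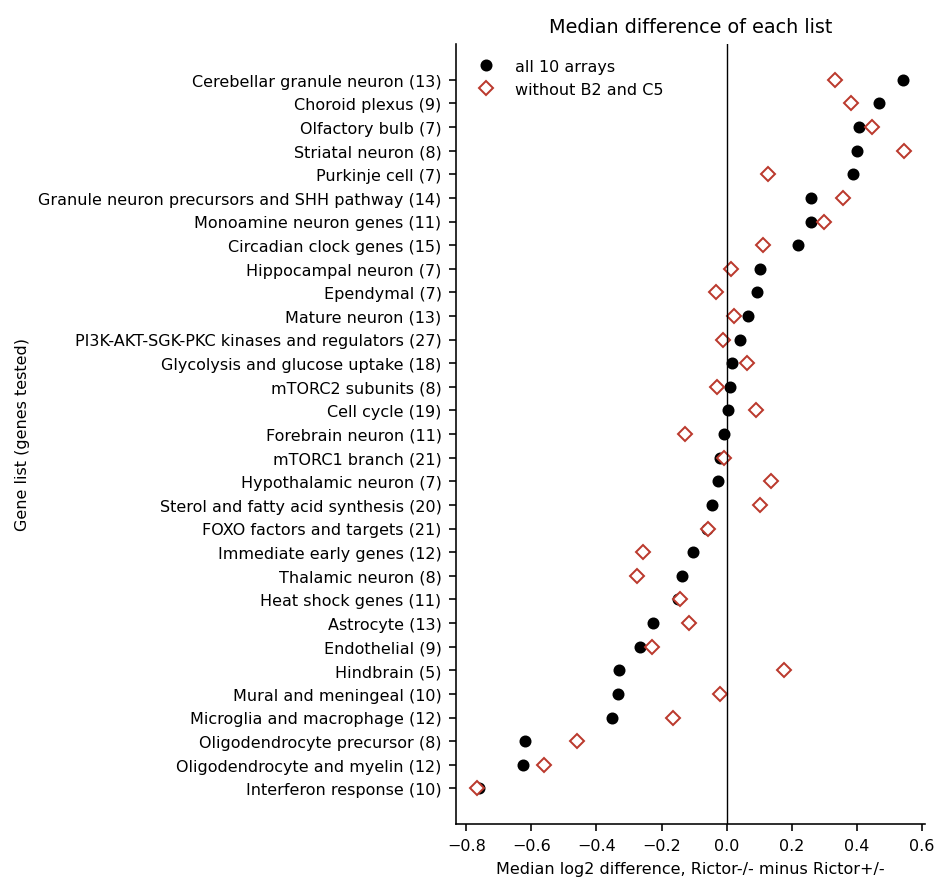
Median log2 difference (x axis, Rictor-null minus Rictor-heterozygous) of each gene list with at least 5 tested genes (y axis, number tested in brackets), over all 10 arrays as black circles and without B2 and C5 as open red diamonds. The interferon list is lowest both ways, at -0.76 and -0.77, while the hindbrain median changes sign, from -0.33 to 0.18.

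Several of the genes that lay higher in the Rictor-null brains were dim. Pttg1 (securin, which holds sister chromatids together until anaphase) had the widest log2 difference on this side, at 769, 91.5, 119.6, 61.4 and 224 against 685, 285, 795, 684 and 889 (log2 difference 1.88, SE 0.58, 95% interval 0.61 to 3.14). It was high in B1 and in the array lacking p53 only (912) and low in the wild-type array (66.2). Of 19 tested genes of the cell cycle list 10 were higher, none at an unadjusted p under 0.05, with a median of 0.0037. Lce1h, a cornified envelope gene of skin, read 6.6, 6.3, 3.4, 6.9 and 5.5 against 27.8, 41, 40.8, 40 and 5.8 (log2 difference 1.49, SE 0.35, 95% interval 0.73 to 2.25), so that 4 Rictor-null arrays stood above all others and C6 lay with the Rictor-heterozygous arrays. C6 was also the 1 array of the 10 low in Xist; the 2 other normal brains, both low in Xist (18.2 and 10.9), read 12.5 (wild type) and 9.5 (p53 only) for Lce1h, and the part of sex was not tested. Leaving out C6 made Lce1h the 1 called gene of the whole comparison (log2 difference 1.86, limma adjusted p = 0.0100), and its adjusted p was at least 0.667 in every other alternative run.

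Slc16a4, a monocarboxylate transporter of the plasma membrane, read 33.9, 40, 43.7, 31.3 and 19.9 against 58.2, 75.2, 48.7, 103 and 42.9 (log2 difference 0.82, SE 0.24, 95% interval 0.28 to 1.35), overlapping by C6 alone. Ercc2, a helicase of nucleotide excision repair, read 23.4, 12.5, 35.4, 27.7 and 18.3 against 39.4, 52.1, 50.9, 60.4 and 30.6 (log2 difference 0.85, SE 0.24, 95% interval 0.34 to 1.37). Atp2b4, a plasma membrane calcium pump, read 19.4, 8, 20.6, 13.5 and 7.8 against 34, 52.9, 31.5, 18.6 and 24.1 (log2 difference 0.93, SE 0.27, 95% interval 0.33 to 1.52). Fam184a (log2 difference 0.55, SE 0.16, 95% interval 0.20 to 0.91), Arrdc1 (log2 difference 0.39, SE 0.12, 95% interval 0.13 to 0.64), an arrestin-domain adaptor, and Acvrl1 (log2 difference 0.47, SE 0.15, 95% interval 0.15 to 0.80), the endothelial receptor ALK1, had no overlap. Fam184a read 117, 125, 120.5, 133 and 102 against 136, 167, 154, 249 and 200.2. Plekha5 (log2 difference 0.54, 95% interval 0.14 to 0.94), Hexdc (log2 difference 0.54, 95% interval 0.12 to 0.96), a hexosaminidase, and Cfap69 (log2 difference 0.46, 95% interval 0.13 to 0.79), a protein of cilia and flagella, had no overlap either. Neither had the dim Scrn2 (log2 difference 0.72, 95% interval 0.21 to 1.23), Klf1 (log2 difference 0.60, 95% interval 0.18 to 1.03) and Mamdc4 (log2 difference 0.69, 95% interval 0.29 to 1.10), whose highest arrays read 21.3, 17.9 and 21.7. The gap between the groups was narrow for Hexdc, 70.1 against 70.2, and for Cfap69, 33 against 34. Spint2 (log2 difference 0.43, 95% interval 0.15 to 0.70), Slx4ip (log2 difference 0.50, 95% interval 0.15 to 0.85) and Prr11 (log2 difference 0.94, SE 0.30) overlapped. For some of the genes of this paragraph a dimmer probe set differed by much less, 0.076 for Slc16a4, 0.15 for Fam184a, 0.11 for Acvrl1 and 0.077 for Cfap69.

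With B2 and C5 set aside the comparison still called no gene. Without them 0 of 14147 genes passed in limma, with 232 higher and 281 lower at an unadjusted p under 0.05, and with a term for them 0 passed, with 830 at an unadjusted p under 0.05 and a lowest adjusted p of 0.844. With the title prefix in the fit 0 passed and 638 had an unadjusted p under 0.05. Within YZ (3 against 2 arrays) the numbers were 0 and 315, and within YZ2 (2 against 3) 0 and 657. With the term for B2 and C5 the median standard error was 0.16, and 93.3% of intervals lay within -1 and 1.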

How the data were processed

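The authors deposited 1 intensity per probe set and array on a linear scale, from Affymetrix Mouse 430 2.0 arrays of total RNA, made with MAS5 and GCOS per the submitters' processing notes, which name no version. The values show that arrays had been scaled to a trimmed mean of 100 (2% at each end). No detection calls were used, and precision is limited by the number of arrays.

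Of 45101 probe sets, 64 were controls, 34945 had 1 gene symbol in the platform annotation, 932 several and 9160 none. Each of 18193 genes was represented by its brightest 1-symbol probe set, and the 14147 with a mean above the 30th percentile (3.82 on the log2 scale) were tested. The 5 Rictor-null and 5 Rictor-heterozygous normal brains were compared as log2 of the intensity plus 6.3 (the 25th percentile of the table) with lmFit and eBayes with a trend in limma 3.58.1 (R 4.3.3), two-sided, with Benjamini-Hochberg adjustment over all genes. Rictor was compared by exact two-sided permutation. The fit was tested on simulated data.

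Named genes were Rictor with up to 8 pathway members, the 12 smallest p a side, up to 8 a side of genes whose groups did not overlap, up to 3 a list and the neighbours of Rictor; clone names were skipped. Other members and regional marker genes were named after their values were seen. The members and the 35 lists were chosen with earlier results of these data known; 1 further list and some genes are not reported here. Pituitary, blood and lymphocyte lists had 0, 0 and 2 tested genes. The 30 alternatives set at the outset covered scaling, pseudocount, filter, probe choice, fit, title prefix, B2 and C5, and each array left out; 3 were added after seeing the data. Gene order and promoter sequences are from RefSeq, GRCm38.p6. Figures used Python 3.11.15 and matplotlib 3.10.9.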

Additional observations from a re-analysis of the deposited data

Results flagged for a closer look

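Of 158 groups of 5 arrays examined (gene lists, named genes and Rictor probe sets, each in both genotypes), 26 (16.5%) had 1 array standing apart from the other 4; chance gives about 1 in 20. Values are log2 levels, for lists their mean. No explanation was weighed.

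B2 and C5 stood apart in most of them. The cerebellar granule neuron list lay at 8.54 in B2 and 10.07 in C5, the Purkinje cell list at 10.05 and 11.67, the forebrain neuron list at 5.72 and 5.65, and the hindbrain list at 6.92 and 4.97. In B2 alone, the astrocyte list stood apart at 10.44, Rictor probe set 1435698_at at 8.63, Chst7 at 5.37, Ctla2a at 8.12 and Ndrg1 at 10.17. In C5 alone, Akt2 stood apart at 7.68 and Plekha5 at 7.61.

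C2 stood apart in the cell cycle list at 6.87, the granule neuron precursor and SHH list at 7.30, Prr11 at 5.07, Mal at 8.60 (the lowest Rictor-null array) and Pttg1 at 8.19 (the lowest). The olfactory bulb list lay at 6.04 in B6 and 6.57 in C6. C6 stood apart in the sex-linked list, of which only Xist was tested, at 4.19, and in Lce1h at 3.60. B7 stood apart in the ependymal list at 5.77, and B1 in Wipf1 at 6.82, the lowest Rictor-heterozygous array.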

How the results depend on the processing

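No alternative but 1 called a gene: without Rictor-null replicate 6 (C6) limma called 1, Lce1h (log2 difference 1.86), so that leaving out 1 array at a time gave 0 to 1 called genes. The number of genes whose groups did not overlap, 67, was 135 with every probe set by itself, 2222 within YZ, 3126 within YZ2, 291 without B2 and C5, 525 without B2, C5 and C2, and 109 to 209 with 1 array left out; fewer arrays make separation easier by construction. Rictor differed by -0.054, and turned to 0.17 as a mean over its probe sets, 0.0078 with the prefix in the fit, 0.084 within YZ, 0.066, 0.026 and 0.011 without B2, C2 or C3, and ranged from -0.23 to 0.066 with 1 array left out; the cause was not tested. Of 31 lists with at least 5 tested genes, the median changed sign under at least 1 alternative for 24, among them Purkinje cell (0.39, range -1.02 to 0.97) and forebrain neuron genes (-0.0098, range -0.70 to 0.93). The median kept its sign in the alternatives run for 7: interferon (-0.97 to -0.60), oligodendrocyte (-0.75 to -0.28), precursor (-0.75 to -0.16), astrocyte (-0.37 to -0.070), endothelial (-0.52 to -0.13), heat shock (-0.23 to -0.059) and circadian clock genes (0.084 to 0.34). Some alternatives could not move a median by construction, among them the term for B2 and C5 and the group means over 28 arrays.

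The title numbers 1, 2 and 6 occur in both groups. Deviations of same-numbered arrays correlated at 0.48, -0.27 and 0.34. These values do not decide whether the numbers pair the arrays, since the region of the pieces also differed. The labels state no pairing, and the main fit took none. With the replicate block 0 genes were called, 635 had an unadjusted p under 0.05, and Rictor was -0.28.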
